A study of Mus musculus with 12 samples.

Results

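The mitosis and spindle checkpoint genes followed here are 38 named genes that drive or guard the separation of chromosomes. They were taken from the deposited table by gene symbol, with the brightest row kept for each gene by its mean over the 12 arrays. A row was found for 37 of the 38, among 19938 named genes in all. Ccnb1, which encodes cyclin B1, had no row under its own symbol and has no value here. RNA came from CD8+CD28low regulatory T cells of C57Bl/6 mice, either wild type (WT) or lacking Aire (KO), with 3 arrays in each of 4 groups. Native cells were freshly isolated, and activated cells had spent 96 h in culture, stimulated through an antibody against CD3 in the presence of allogenic antigen-presenting cells. The series title concerns the failure of Aire-deficient cells of this kind to control experimental colitis. The arrays of a group are named biological replicates; the labels leave out the number of mice per array, the isolation of the cells, any removal of antigen-presenting cells before lysis and the make of the Aire allele. The p-values thus measure the spread between these arrays.

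A resting T cell carries little mitotic transcript, because complexes of the DREAM type hold these genes silent outside the cell cycle. In dividing cells, B-MYB and then FOXM1 switch them on late in the cycle, so that the kinase CDK1 with cyclins A and B can start mitosis. The spindle checkpoint then halts the cell until every kinetochore, the protein plate on the centromere, is attached to microtubules, after which CDC20 and separase release the chromosomes and the cytokinesis machinery divides the cell. Antigen and CD3 signals are known to bring T cells into rapid division, and mitotic transcripts such as Mki67 are widely read as a sign of cycling cells.

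The labelled cell type was checked first. All 7 measured markers of CD8 T cells lay above background on every array. Cd8a ran from 12.37 to 12.70 in native and from 10.77 to 12.23 in activated cells. Of the 2 CD4 T cell markers, Cd4 ran from 5.52 to 6.22 over all arrays. The other, Zbtb7b, ran from 5.68 to 6.06 in native and from 6.65 to 8.05 in activated cells. Aire itself lay at or under background on every array, from 5.55 to 5.92 in WT and from 5.61 to 5.89 in KO cells, so its level could not check the genotype labels. Cd28 transcript lay between 9.98 and 11.97, well above background; the groups used here hold no CD28-high cells to set this against. Background here is the 95th percentile of 1027 olfactory receptor genes on the same array, 6.12 to 6.72 on 11 arrays and 7.31 on activated KO array 3. The interquartile range of log2 values was smallest there, 2.19, followed by activated WT array 2 at 2.45, where the other 10 lay between 2.65 and 2.89. Neutrophil transcripts (12 genes) had a mean level of 8.46, 6.03 and 7.84 on native KO arrays 1, 2 and 3, against 6.86, 5.90 and 5.48 in native WT, and 5.74 to 5.88 on the activated arrays.

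Every measured mitotic gene rose on activation, in both genotypes. In WT cells all 37 passed limma's test (adjusted p from 1.44e-08 to 0.000251), where 9.72% of all genes were called higher, and in KO cells all 37 passed (adjusted p from 2.12e-08 to 0.000375), where 8.72% were. All values below are on the log2 scale and differences carry the standard error of the fit, with 3 arrays per group. The median difference over the 37 genes was 3.13 in WT and 2.86 in KO cells, beside -0.02 and 0.02 over all genes. Before activation 10 members lay at background on all 3 arrays in each genotype, so their rises are lower bounds. With those at their bound the medians were 2.97 and 2.85. Above background on all 3 native arrays were 22 members in WT and 23 in KO cells. The remaining members passed it on some native arrays only, and their rises are given at fitted values. The smallest rise, that of Kif18a, was still above 1, a size that 4.97% of all genes reached in WT and 4.3% in KO cells. No member's native values overlapped its activated values; groups separated in this direction for 17.5% of all genes in WT and 13.8% in KO cells. The arrays hold bulk RNA, in which more dividing cells and more transcript per cell cannot be told apart. On the activated arrays 1 of 6 B cell markers, at most 2 of 14 macrophage and dendritic, at most 2 of 12 neutrophil and 0 of 3 erythroid markers lay above background. So did 2 of 5 plasma cell markers, Prdm1 and Xbp1, and 2 to 4 of 6 NK cell markers, which had a mean level of 6.95 to 8.28. Eomes and Fcer1g were the brightest of the NK cell markers, while Ncr1 and Klra8 lay under background on every activated array. Of the 2 CD4 T cell markers, Zbtb7b lay above background on every activated array but KO array 3, and Cd4 on none. Among the neutrophil markers Mmp9 went the other way from most. It lay at 5.36, 5.23 and 5.12 in native WT and at 9.04, 8.10 and 10.55 in activated WT cells. In KO cells it lay at 6.51, 5.29 and 5.75 before and at 8.77, 9.36 and 6.34 after activation. The part of other cells in the culture was not tested.

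**Figure D1:**
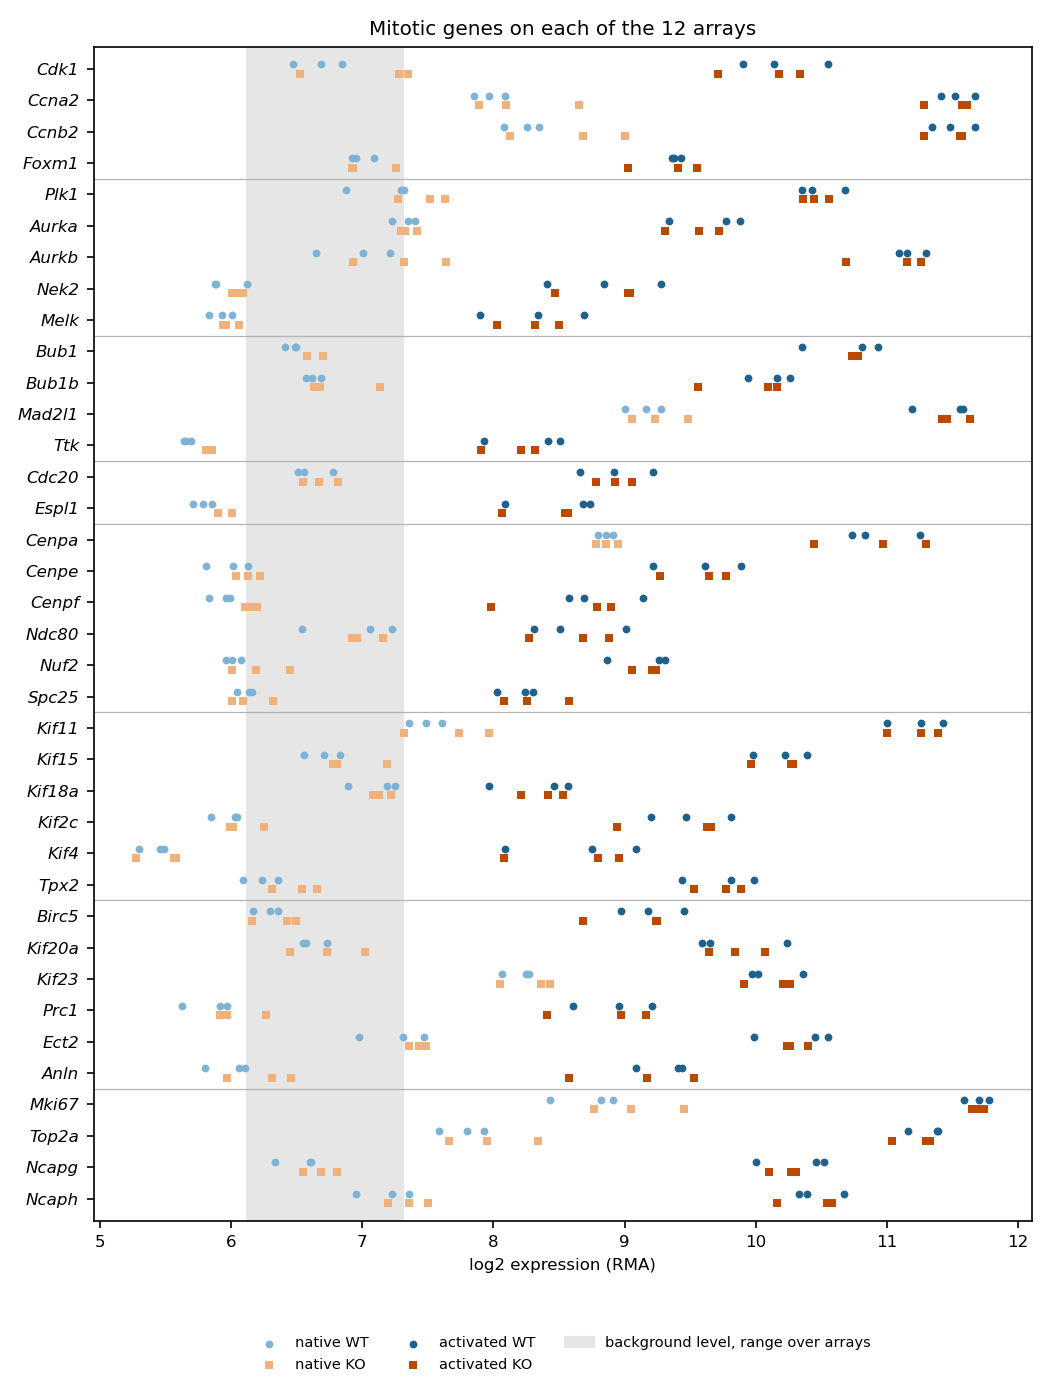
Log2 expression of the 37 mitotic genes (rows, grouped by role) on each array, with circles for WT, squares for KO, light marks for native and dark marks for activated cells. The grey band spans the arrays' background levels, 6.12 to 7.31. Native and activated marks do not overlap in any row, and many native marks lie within or left of the band.

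Of the cyclins, CDK1 and the transcription factor, all 4 measured genes rose. Cdk1, the kinase that starts mitosis, lay at 6.85, 6.69 and 6.47 on native WT arrays 1, 2 and 3 and at 7.28, 6.53 and 7.35 on the native KO arrays. After activation it lay at 10.55, 9.90 and 10.14 in WT and at 10.34, 10.18 and 9.71 in KO cells. The lowest activated value was more than 2 above the highest native one, and the rise was 3.53 ± 0.24 in WT (11.5-fold) and 3.02 ± 0.24 in KO cells (8.12-fold). Ccna2, cyclin A2, rose by 3.56 ± 0.18 and 3.27 ± 0.18 in WT and KO cells, and Ccnb2, a B-type cyclin, by 3.27 ± 0.19 and 2.86 ± 0.19. Foxm1, the activator of many genes described here, was at 7.09, 6.95 and 6.92 in native WT, 7.26, 6.92 and 6.93 in native KO, 9.43, 9.36 and 9.38 in activated WT and 9.41, 9.55 and 9.03 in activated KO cells. Its rise was smaller, 2.40 ± 0.14 in WT and 2.30 ± 0.14 in KO cells.

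All 5 mitotic kinases rose, and they differed widely in size. Aurkb, the kinase of the chromosomal passenger complex, was at 7.21, 7.01 and 6.65 in native WT and 7.32, 6.93 and 7.64 in native KO cells. It reached 11.30, 11.09 and 11.15 in activated WT and 11.15, 11.26 and 10.69 in activated KO cells, a rise of 4.22 ± 0.21 (18.7-fold) and 3.73 ± 0.21 (13.3-fold). Aurka, its relative at the spindle poles, rose less, by 2.34 ± 0.15 and 2.19 ± 0.15. Plk1, which acts from entry into mitosis to cytokinesis, rose by 3.32 ± 0.15 and 2.98 ± 0.15. Nek2, a centrosomal kinase, and Melk lay at background in both native groups, and with the background level in place of the native one their rises were at least 2.59 and 2.06 in WT and at least 2.55 and 2.00 in KO cells.

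The checkpoint kinase gene Bub1 had the largest rise of the 37 in KO cells, and in WT cells a rise like that of Aurkb. Its values were 6.50, 6.41 and 6.49 in native WT, 6.58, 6.58 and 6.70 in native KO, 10.93, 10.35 and 10.81 in activated WT and 10.78, 10.74 and 10.73 in activated KO cells. Native arrays lay within 0.3 of each other, and the rise was 4.23 ± 0.13 in WT (18.8-fold; limma, adjusted p = 1.44e-08) and 4.13 ± 0.13 in KO cells (17.5-fold; adjusted p = 2.12e-08). In WT the order of Bub1 and Aurkb turned with single arrays, at 4.25 and 4.35 without native WT array 1. Bub1b, which encodes the checkpoint protein BUBR1, rose by 3.49 ± 0.18 and 3.12 ± 0.18. Mad2l1, whose product binds and restrains CDC20, was far above background before activation, at 9.28, 9.16 and 9.0 in native WT and 9.23, 9.06 and 9.48 in native KO cells. It rose to 11.58, 11.19 and 11.56 (WT) and to 11.46, 11.42 and 11.63 (KO), by 2.29 ± 0.14 and 2.25 ± 0.14. Ttk, the kinase MPS1 that starts checkpoint signalling, lay at background in native cells and rose by at least 2.03 in WT and 1.86 in KO cells. Among the targets of this brake, Cdc20, the activator of the anaphase-promoting complex, rose by 2.32 ± 0.15 and 2.24 ± 0.15, and Espl1, separase, by at least 2.25 and 2.10 from native levels at background.

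All 6 centromere and kinetochore genes rose, the least of them by 1.67 in WT and 1.59 in KO cells. Cenpe, a kinesin of the kinetochore, rose by 3.59 ± 0.18 in WT, and by at least 3.26 in KO cells, where it lay at background before activation. In native WT cells it passed background on array 1 only, at 6.13 against 6.12, so the genotypes hardly differ in its detection. Cenpa, the histone variant that marks centromeres, was already at 8.91, 8.86 and 8.80 in native WT and 8.95, 8.78 and 8.86 in native KO cells, and rose by 2.08 ± 0.20 and 2.04 ± 0.20. The NDC80 complex, which holds microtubules at the kinetochore, was represented by 3 of its subunits. Ndc80 was at 7.06, 7.23 and 6.54 in native WT, 7.16, 6.92 and 6.96 in native KO, 9.01, 8.31 and 8.51 in activated WT and 8.88, 8.68 and 8.27 in activated KO cells. That made 1.67 ± 0.22 (3.18-fold) and 1.59 ± 0.22 (3.02-fold), the second smallest rise in each genotype. Its partner Nuf2 rose by at least 2.89 from background in WT and by 2.95 ± 0.14 in KO cells. Spc25 rose by 2.08 ± 0.14 in WT and at least 2.01 from background in KO cells. Nuf2 passed background on native KO array 3 only, and Spc25 on native WT array 1 only. Cenpf, a large protein of the outer kinetochore, lay at background in both native groups and rose by at least 2.55 and 2.26.

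The 5 spindle motors and the assembly factor Tpx2 rose too. Kif11, the motor that pushes spindle poles apart, was at 7.61, 7.49 and 7.36 in native WT, 7.74, 7.32 and 7.97 in native KO, 11.43, 11.00 and 11.26 in activated WT and 11.26, 11.39 and 11.00 in activated KO cells. It rose by 3.74 ± 0.18 (13.4-fold) and 3.54 ± 0.18 (11.6-fold). Kif15, a motor with overlapping function, rose by 3.49 ± 0.15 and 3.25 ± 0.15, and Tpx2, which recruits and activates Aurora A, by 3.52 ± 0.16 and 3.23 ± 0.16. Kif2c and Kif4 were at background before activation, with rises of at least 3.24 (WT) and 3.12 (KO) for Kif2c and at least 2.39 and 2.32 for Kif4. Kif18a, which limits the movement of chromosomes at the spindle equator, stood at the other end. Its values were 7.19, 7.25 and 6.89 in native WT, 7.08, 7.22 and 7.13 in native KO, 8.46, 7.97 and 8.57 in activated WT and 8.42, 8.53 and 8.21 in activated KO cells, and it rose by 1.22 ± 0.16 (2.33-fold; limma, adjusted p = 0.000246) and 1.24 ± 0.16 (2.37-fold; adjusted p = 0.000233).

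The 6 genes of the spindle midzone and cytokinesis all rose, by a median of 2.99 in WT and 2.77 in KO cells with members at background set at their bound. Birc5, survivin, a partner of Aurora B, rose by 2.92 ± 0.17 and 2.69 ± 0.17, and Kif20a, which carries the passenger complex to the midzone, by 3.21 ± 0.19 and 3.12 ± 0.19. Ect2, the exchange factor that positions the cleavage furrow, rose by 3.07 ± 0.16 and 2.87 ± 0.16. Anln, anillin, rose by at least 3.06 from background in WT and by 2.85 ± 0.22 in KO cells, where it passed background on native arrays 1 and 3 only. The midzone bundler Prc1 rose by at least 2.67 and 2.56. Kif23, a subunit of the centralspindlin complex, was above 8 on every native array and rose by 1.92 ± 0.15 and 1.84 ± 0.15.

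None of the 4 genes of chromosome structure lay at background on all arrays of a native group, and they rose by a median of 3.41 in WT and 3.16 in KO cells. Mki67, the proliferation marker that coats mitotic chromosomes, was at 8.91, 8.82 and 8.43 in native WT and 9.05, 8.77 and 9.45 in native KO cells, well above background before activation. It rose to 11.70, 11.59 and 11.78 (WT) and to 11.65, 11.74 and 11.68 (KO), by 2.97 ± 0.17 and 2.60 ± 0.17, and its activated values lay closer together than those of most members. Ncapg, a condensin subunit, rose by 3.81 ± 0.15 (14-fold) and 3.54 ± 0.15 (11.7-fold), its partner Ncaph by 3.28 ± 0.16 and 3.07 ± 0.16, and Top2a, the enzyme that untangles sister chromatids, by 3.53 ± 0.17 and 3.24 ± 0.17.

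The order of the members was much alike in the 2 genotypes, which share no array. Across the 37 genes the fitted WT and KO rises, those of members at background before activation included, correlated at Pearson's r = 0.98 and Spearman's rho = 0.97, as a description over genes that share arrays within each genotype; over all genes r was 0.96. The rise was larger in WT than in KO cells for 35 genes and larger in KO for 2, Spc25 and Kif18a, and no member differed by more than 0.50. That difference is the interaction treated below, for which no member passed the test.

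**Figure D2:**
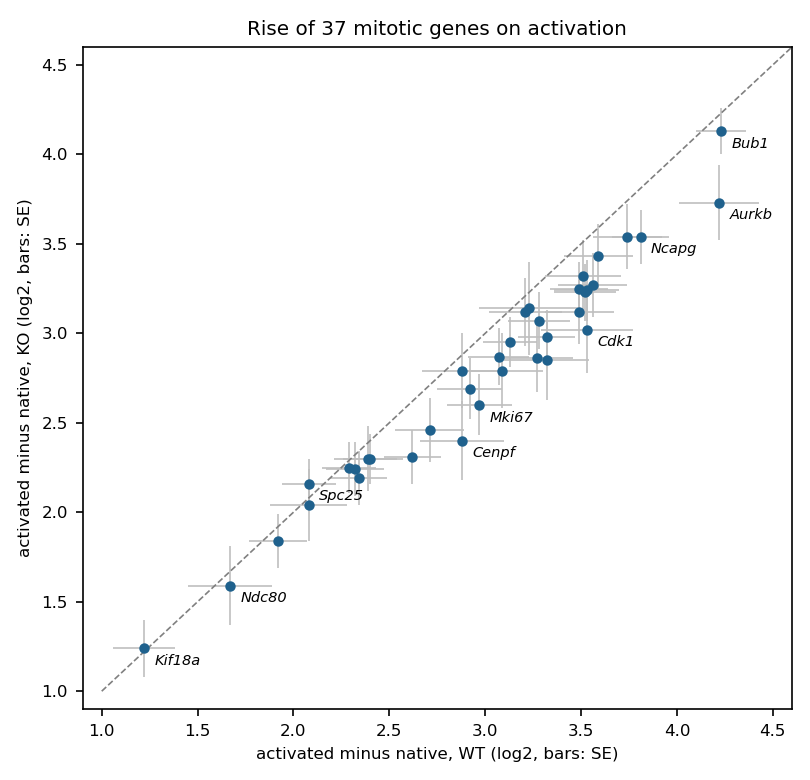
Activated minus native log2 difference of each of the 37 genes in WT (x axis) and KO cells (y axis), with bars for the standard error and a dashed line of equal rises. Points run from Kif18a (1.22 and 1.24) to Bub1 (4.23 and 4.13), and 35 lie under the line; genes at background before activation are drawn at their fitted values.

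Mitotic genes outside the 38 behaved less evenly. Of 122 other measured genes from 7 lists, limma called 80 higher and 7 lower in activated WT cells and 70 higher and 5 lower in KO cells, with median differences of 0.94 and 0.81; of all genes, 10.9% and 11.4% were called lower. Other kinetochore and centromere genes rose in 22 of 29 cases in WT cells, led by Knl1, the scaffold on which the checkpoint assembles, at 3.21 ± 0.16, and none fell. Of 17 genes of checkpoint, passenger complex and cohesin, 8 rose, with Cdca8, borealin, at 3.22 ± 0.19, and 1 fell, Pttg1, which encodes securin, the inhibitor of separase, by -0.55 ± 0.11 (adjusted p = 0.00416). Subunits and partners of the anaphase-promoting complex rose in 8 of 16 cases, with Ube2c, its ubiquitin donor, at 2.33 ± 0.14, and none fell. Spindle and cytokinesis genes rose in 19 of 24 cases, up to 3.69 ± 0.17 for Kif18b, and 2 fell: Numa1, a spindle pole protein, and Mapre1, the microtubule end-binding protein EB1, by -0.70 ± 0.17 and -0.70 ± 0.13. Entry kinases, phosphatases and regulators rose in 15 of 16 cases. The largest fitted rise, 3.16, was that of Mastl, a kinase that restrains a mitotic phosphatase, but from background it is known only as at least 2.75. Cks1b, above background in native cells, went from 8.76, 8.58 and 8.54 to 12.06, 11.60 and 11.62 in WT. Ppp2r2a, a subunit of such a phosphatase, fell by 0.49 ± 0.15 on the log2 scale. Among condensins 4 of 6 rose, with Ncapg2 at 3.39 ± 0.23, and Smc4 fell by 0.57 ± 0.11. The last list held genes of the DREAM and MuvB complexes, which repress or activate the mitotic programme. It also held Nfya, Nfyb and Nfyc, which encode the CCAAT-binding factor NF-Y and belong to neither complex. Of these 14 genes 4 rose, with Mybl2, B-MYB, at 1.91 ± 0.24, and 2 fell, of which Lin52 had the larger difference, -0.59 ± 0.14.

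Because the members rose together, their promoters were searched for 2 elements through which mitotic genes are known to be controlled. The cell cycle genes homology region (CHR), bound by DREAM and by B-MYB with FOXM1, was searched as TTTGAA or TTCGAA, and the box bound by the factor NF-Y as CCAAT, on both strands; neither motif contains the other. Windows came from RefSeq (GRCm38.p6), 250 bases before to 50 after a start site of the gene. That site need not be the outer edge of the gene's annotated span, and for Aurka and Espl1 it lay inside the span. Of the 38 genes 33 matched, while Ccna2, Foxm1, Aurkb, Tpx2 and Kif20a did not. The 120 bases before the start of 10 members follow, 5′ to 3′ along the gene, with matches in capitals; a match on the other strand reads as its reverse complement. The first 8 show how the elements are arranged, and Ncaph and Nuf2 are among the members without either.
Cdk1, chr10:69352913-69353032, minus strand: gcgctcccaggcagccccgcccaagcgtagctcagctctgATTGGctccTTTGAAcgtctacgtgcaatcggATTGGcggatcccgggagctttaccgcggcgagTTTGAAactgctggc
Ccnb2, chr9:70421555-70421674, minus strand: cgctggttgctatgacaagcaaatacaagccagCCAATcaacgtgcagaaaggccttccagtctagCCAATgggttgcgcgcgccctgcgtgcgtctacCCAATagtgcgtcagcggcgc
Cdc20, chr4:118437344-118437463, minus strand: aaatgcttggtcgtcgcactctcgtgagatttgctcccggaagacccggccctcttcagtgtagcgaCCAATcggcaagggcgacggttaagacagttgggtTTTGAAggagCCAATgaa
Espl1, chr15:102296173-102296292, plus strand: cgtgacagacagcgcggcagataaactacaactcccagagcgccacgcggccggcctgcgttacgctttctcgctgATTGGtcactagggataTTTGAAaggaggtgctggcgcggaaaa
Aurka, chr2:172370571-172370690, minus strand: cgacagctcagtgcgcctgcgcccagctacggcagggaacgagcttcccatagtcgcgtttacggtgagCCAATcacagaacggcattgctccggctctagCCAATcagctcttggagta
Spc25, chr2:69206214-69206333, minus strand: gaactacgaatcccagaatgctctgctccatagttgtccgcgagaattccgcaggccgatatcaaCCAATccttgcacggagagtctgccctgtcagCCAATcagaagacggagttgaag
Kif11, chr19:37376262-37376381, plus strand: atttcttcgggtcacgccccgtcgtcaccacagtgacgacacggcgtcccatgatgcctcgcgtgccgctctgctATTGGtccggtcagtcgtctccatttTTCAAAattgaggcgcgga
Top2a, chr11:99024190-99024309, minus strand: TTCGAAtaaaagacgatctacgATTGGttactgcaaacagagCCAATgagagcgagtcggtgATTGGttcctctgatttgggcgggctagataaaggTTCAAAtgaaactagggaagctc
Ncaph, chr2:127133955-127134074, minus strand: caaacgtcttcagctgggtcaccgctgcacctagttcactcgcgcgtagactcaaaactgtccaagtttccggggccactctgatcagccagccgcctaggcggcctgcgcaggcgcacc
Nuf2, chr1:169531465-169531584, minus strand: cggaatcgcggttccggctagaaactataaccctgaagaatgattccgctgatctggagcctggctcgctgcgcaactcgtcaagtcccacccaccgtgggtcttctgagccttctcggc

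Cdk1 holds 2 CHR matches, at -71 and -15 from the start, with NF-Y boxes at -80 and -48. In Cdc20, Espl1, Kif11 and Top2a a CHR lies at -18, -27, -19 and -23, each with an NF-Y box upstream at -53, -44, -45 and -58; Top2a holds several more of both in its window. The boxes of Ccnb2 at -87, -54 and -21 are evenly spaced, and those of Aurka (-51 and -19) and Spc25 (-55 and -23) have nearly the same spacing; a CHR of each of these 3 genes lies after the start, at 5, 33 and 25, outside the stretch printed, and Ccnb2 holds a further CHR at -167. Ncaph and Nuf2 rose by 3.28 and at least 2.89 in WT cells. Birc5, Mad2l1, Melk and Kif18a held neither element as well. Their rises in WT cells were 2.92, 2.29, at least 2.06 and 1.22, the last being the smallest rise of all members. Mad2l1 and Kif18a thus rose less than Ncaph and Nuf2. With bounds for Nuf2 and Melk, the order of Birc5 and Nuf2 and the place of Melk are not known. The absence of a match says only that these letters are not in the window.

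A CHR was found in 24 of the 33 members (72.7%), against 19.1% of 15013 protein-coding genes tested on the arrays and 21.7% of all 27025 genes with a window. An NF-Y box was found in 23 members (69.7%), against 41.8% and 41.1%. Both stood in the same window in 20 members (60.6%), against 7.7% and 8.61%. Of the 1451 other genes that rose in WT cells, with members and lists left out, 18.3% held a CHR and 9.1% both elements, close to the shares of all tested genes. Among 102 other mitotic genes of the lists, 49% held a CHR and 34.3% both. The GC box GGGCGG, common in promoters without regard to the cell cycle, was in 78.8% of members, 69.3% of the other rising genes and 53.7% of tested genes. Within the members the presence of a CHR went with little difference in size: the median fitted rise in WT cells was 3.16 in 24 genes with it and 2.90 in 8 measured genes without it. These are matches of letters, given as descriptions, and not sites of binding.

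**Figure D3:**
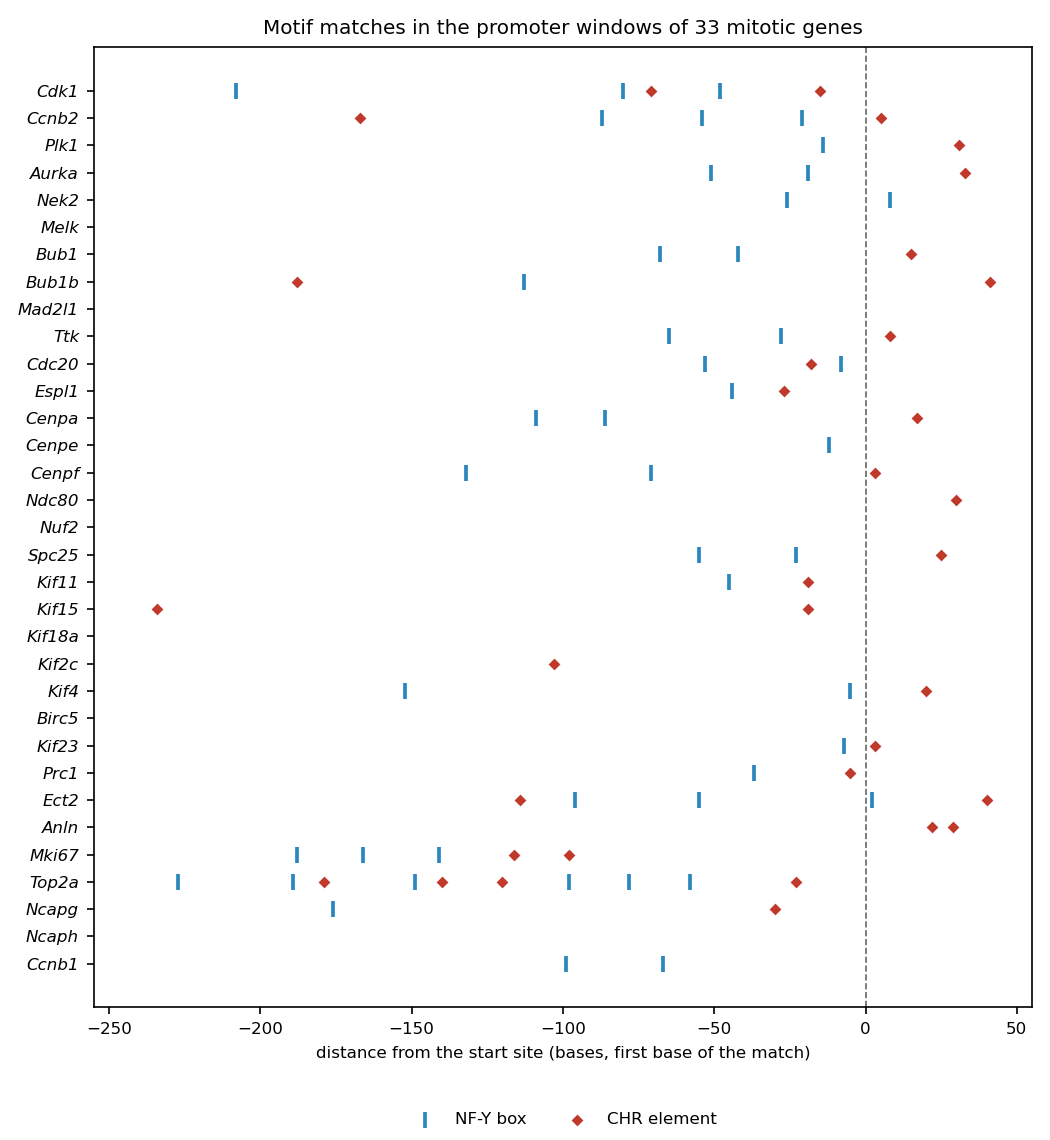
Distance of each motif match from the start site in the promoter windows of 33 genes, as bars for the NF-Y box and diamonds for the CHR; the window nearer the top of the table is drawn for genes with several. Of the CHR matches, 25 of 37 lie between -60 and 50, and of the NF-Y boxes 32 of 50 lie between -120 and -20. These counts take all windows, so matches in the overlapping windows of Ect2 and of Prc1 enter from each. Positions in other promoters were not counted, so the counts do not set the members apart.

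Between native KO and native WT cells no mitotic gene passed the test, although every fitted difference lay above 0 (KO higher). By limma 0 of 37 were called (all at adjusted p = 1) and 0 had an unadjusted p under 0.05; the background is 0% of 19938 genes called higher and 0.657% at an unadjusted p under 0.05. Differences ran from 0.01 to 0.38 with a median of 0.17, while over all genes the median was -0.02 and 40.1% lay above 0. Of the 37, 8 lay at background in both native groups and 4 in 1 of them, and the sign of the 8 gives no direction; the other 25 were all above 0, with the same range and a median of 0.17. The 5 members with the smallest p were Mki67 at 0.37 ± 0.17 (unadjusted p = 0.0515, limma), Plk1 at 0.31 ± 0.15, Ccnb2 at 0.38 ± 0.19, Tpx2 at 0.27 ± 0.16 and Aurkb at 0.34 ± 0.21; Cdk1 had the highest difference beside Ccnb2, 0.38 ± 0.24, and Cenpa the lowest, 0.01 ± 0.20. All 3 KO arrays lay above all 3 WT arrays for 4 members, Bub1, Ttk, Espl1 and Cenpf, where 2.12% of all genes separated in that direction. Of these, Ttk, Espl1 and Cenpf lay at background in both native groups and their differences give no size.

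Single arrays decided how large this shift looked. Ccnb2 was at 8.35, 8.08 and 8.26 in native WT and at 8.68, 8.13 and 9.0 in native KO cells, and Mki67, Cdk1 and Aurkb, given above, had the same order of KO arrays, with array 3 highest and array 2 lowest. Over all members, native KO array 3 was the highest of its group for 28 genes and KO array 2 the lowest for 30, while native WT array 3 was the lowest of its group for 29. Over all genes, native arrays of the same number varied together at numbers 1 and 2 but hardly at number 3. Within numbers the members differed. KO lay above WT for 28 of 37 at number 1 (median 0.11), for 11 at number 2 (median -0.046) and for all 37 at number 3 (median 0.42), where 37.6%, 41.2% and 53.7% of all genes did. Without KO array 3 the median over the members fell to 0.093, and without WT array 3 to 0.096, with 34 and 31 genes above 0. Without KO array 3, Ccnb2 differed by 0.18, Mki67 by 0.19, Aurkb by 0.17 and Cdk1 by 0.24; without KO array 2, Cdk1 differed by 0.65, Ccnb2 by 0.61 and Aurkb by 0.52. Plk1 differed by 0.16 without WT array 3. Neutrophil transcripts were highest on native KO arrays 1 and 3, where 12 and 10 of 12 lay above background. On native KO array 2 there were 3 above it, and in native WT 10, 2 and 0. All 12 had a difference above 0, among them Elane and Mpo, granule enzymes of immature granulocytes. Mpo was at 8.17, 5.98 and 8.45 on native KO arrays 1, 2 and 3 and at 7.29, 5.97 and 5.56 in native WT. NK cell markers lay at a mean of 8.71, 7.91 and 8.25 in native KO against 8.03, 7.49 and 7.51 in native WT, and 3 measured erythroid markers at 6.78, 6.45 and 6.75 against 6.87, 6.04 and 6.37. The part of these cells in the mitotic values was not tested.

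**Figure D4:**
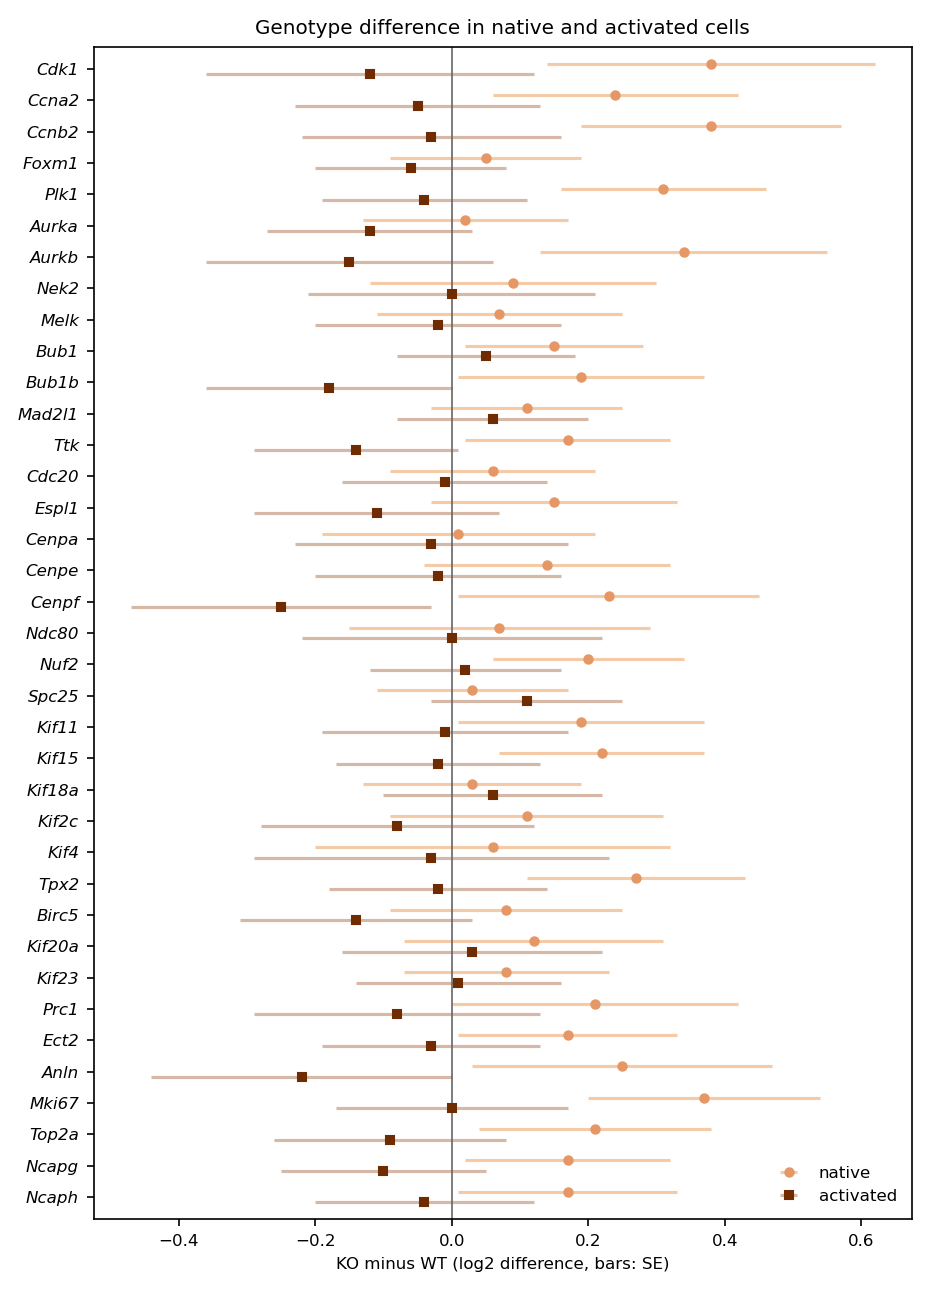
KO minus WT log2 difference of each of the 37 genes in native (circles) and activated cells (squares), with bars for the standard error. All circles lie right of 0, from 0.01 to 0.38 (8 of them for genes at background in both native groups), and the squares scatter on both sides of 0, from -0.25 to 0.11.

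After activation no mitotic gene passed the test between KO and WT cells, and the groups' means lay close together while arrays of the same number lay apart in opposite directions. By limma 0 of 37 were called (all at adjusted p = 1) and 0 had an unadjusted p under 0.05, where 0% of all genes were called lower and 0.436% had such a p in either direction. Differences ran from -0.25 to 0.11 with a median of -0.03, 27 of them below 0, beside 52.3% of all genes. KO and WT values overlapped for every member, where 0.858% of all genes separated with KO higher and 0.888% with KO lower. The 5 members with the smallest p were Cenpf at -0.25 ± 0.22 (unadjusted p = 0.273, limma), Bub1b at -0.18 ± 0.18, Anln at -0.22 ± 0.22, Ttk at -0.14 ± 0.15 and Aurka at -0.12 ± 0.15, and the highest was Spc25 at 0.11 ± 0.14. For Mki67 the difference was 0.00 ± 0.17.

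Within numbers, KO lay below WT for 35 of 37 members at number 1 (median -0.14), above for all 37 at number 2 (median 0.27) and below for 35 at number 3 (median -0.31), where 46.9%, 53.3% and 48.2% of all genes lay above 0. The values also turned with the arrays included. Activated KO array 3, the array with the highest background, was the lowest of its group for 34 of 37 genes; without it 5 members lay below 0 in place of 27, the median was 0.069, and Cenpf, Bub1b and Anln differed by 0.039, 0.0058 and 0.042. Ttk and Aurka then differed by -0.02 and -0.014. Activated WT array 2 was the lowest of its group for 36 genes; without it 36 members lay below 0, with a median of -0.16, and Ttk and Aurka differed by -0.32 and -0.29. Without activated WT array 1, the highest of its group for 34 genes, 10 lay below 0. Without activated KO array 1, Spc25 differed by -0.025, and without KO array 2 by 0.23, with Cenpf at -0.42, Bub1b at -0.29 and Anln at -0.44. After quantile normalization 13 of 37 lay below 0, with a median of 0.014.

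The rise on activation was not shown to differ between the genotypes. The interaction, the KO rise minus the WT rise, was below 0 for 35 of 37 members, beside 46.6% of all genes, with a median of -0.20 against 0.01 over all genes, but limma called 0 members (all at adjusted p = 1), 0 had an unadjusted p under 0.05 (0.431% of all genes), and 0% of all genes were called in either direction. Among the 25 members at background in neither native group 24 lay below 0, with a median of -0.21. The smallest p belonged to Aurkb at -0.49 ± 0.29 (unadjusted p = 0.12, limma), Plk1 at -0.34 ± 0.21, Cenpf, Mki67 at -0.37 ± 0.24 and Anln, and the lowest value to Cdk1 at -0.50 ± 0.34. Cenpf, Anln and Spc25, which had the highest fitted value, lay at background in at least 1 native group, so their interaction gives no size. The interaction holds both genotype differences above and is no independent evidence of either. Its median was -0.089 without activated KO array 3, -0.099 without activated WT array 1, -0.12 without native KO array 3, -0.13 without native WT array 3 and -0.34 without activated WT array 2. The members moved by over 1.5 times as well: Aurkb was at -0.31 and Cdk1 at -0.32 without activated KO array 3, Mki67 at -0.19 without native KO array 3, Plk1 at -0.20 without native WT array 3, and Cdk1 at -0.76 without native KO array 2.

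Within a group the mitotic genes moved as a block from array to array. On activated WT array 1 all 37 lay above their group mean and on activated WT array 2 none did, where 47.6% and 51% of all genes lay above theirs. On activated KO arrays 1, 2 and 3 the counts were 35, 31 and 1, against 47.9%, 44% and 52.8% of all genes. Native arrays showed the same on a smaller scale, with 34, 29 and 4 genes above the group mean on WT arrays 1, 2 and 3 and 21, 2 and 31 on the KO arrays. The spread within groups was wider for the members than for all genes in 3 groups: the median standard deviation was 0.134 against 0.0989 in native WT, 0.18 against 0.122 in native KO and 0.282 against 0.159 in activated WT cells. In activated KO cells it was 0.215 against 0.247. The 2 sets are unlike in level: 47.6% to 49.7% of all genes lay at background in a group, against 10 members in each native and 0 in each activated group. The 2 arrays on which members were lowest, activated WT array 2 and activated KO array 3, are those with the highest background level (6.72 and 7.31) and the narrowest interquartile range. The part of this in the mitotic values was not tested.

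**Figure D5:**
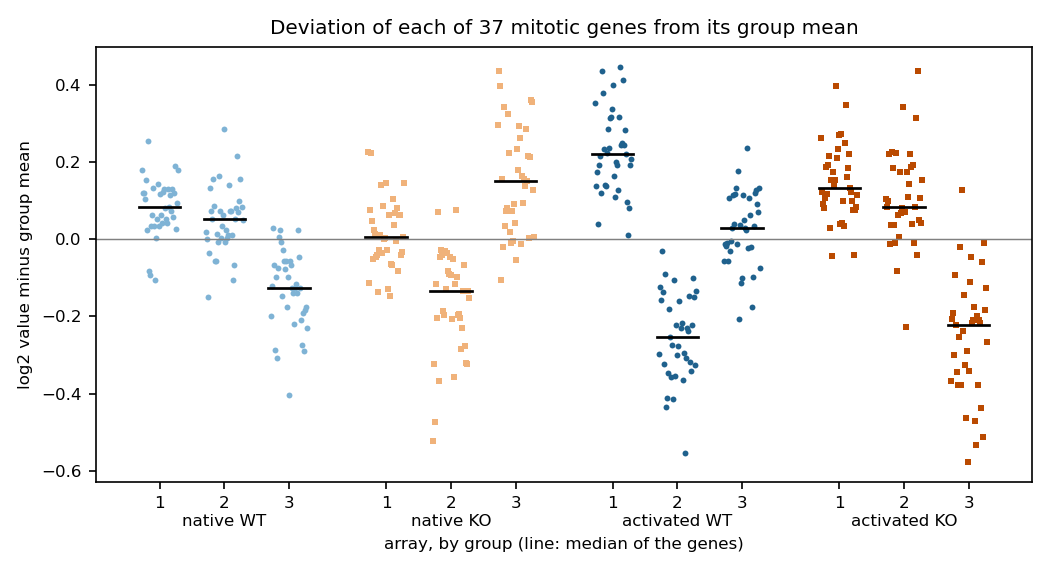
Log2 value of each of the 37 genes minus its mean over the 3 arrays of its group, by array, with a line at the median of the genes. On activated WT array 1 all points lie above 0 (median 0.22), on activated WT array 2 all lie below (median -0.26), and on activated KO array 3 the median is -0.22.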

How the data were processed

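Total RNA was labelled with biotin as sense DNA for Affymetrix whole-transcript arrays, per the labels' protocols. The deposited table holds log2 expression values, 35556 transcript clusters on 12 arrays, which the authors computed by RMA in Partek (per the submitters' processing notes). For versions, options and any alignment of the arrays, the sources used here give nothing; RMA compresses differences near background, and alignment would hide a shift of most transcripts.

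Rows were named through the platform annotation and updated by Entrez identifier to GRCm38.p6: 21789 rows had 1 symbol (21698 matched), 1621 several and 12146 none. The brightest row per gene gave 19938 genes; 999 had several rows. Group means were fitted over all 12 arrays by lmFit and eBayes of limma 3.58.1 (R 4.3.3), with Benjamini-Hochberg adjustment over all genes and a call at an adjusted p under 0.05. The fit was tested on simulated data. Where all 3 arrays of a native group lay at or under background, the rise of a named gene is given as a bound and its genotype difference without a size; counts, tests and the medians over all members use the fitted values unless bounds are named. Precision is limited by 3 arrays per group.

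The rule for named genes took all members on activation, and for genotype comparisons the 5 smallest p-values and both extremes; in other lists, the largest called rise and fall in WT. Members, lists and motifs were chosen with earlier results of these data known. The descriptions give the KO and WT array of each replicate a shared number without saying what it marks. Numbers were taken to pair native KO and WT arrays, since deviations from the group mean correlated at 0.58, 0.40 and 0.16 between arrays of the same number. The highest correlation of each WT array with a KO array of another number was -0.21, 0.05 and 0.13. The pairing is thus hardly seen at number 3. Alternatives changed the block, arrays, prior, scaling, filter, rows and weights.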

Additional observations from a re-analysis of the deposited data

How the results depend on the processing

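All 37 members stayed called higher on activation, in WT and in KO cells, under every alternative run, with the lowest member from 1.11 to 1.40 in WT and from 1.16 to 1.33 in KO cells. No member was called in a genotype comparison or the interaction under any of them. With the replicate number as a block the counts of calls were 37, 37, 0, 0 and 0, as without it. The 6 native arrays were also fitted alone with that block, an alternative chosen after seeing the data. There 0 members were called, and the smallest adjusted p by limma was 0.728, while 14 of 19938 genes were called. In that fit 5 members, Cdk1, Ccnb2, Plk1, Cenpf and Tpx2, had an unadjusted p under 0.05 by limma. Deviations of activated WT and KO arrays of the same number correlated at 0.69, -0.02 and -0.01, so these values alone did not settle a pairing, and likewise between native and activated arrays. The descriptions give the KO and WT array of each replicate a number of their own, within a state; with that number as a replicate block, also chosen after seeing the data, 0 members were called in either genotype comparison or the interaction (limma, smallest adjusted p = 1), and 1 native difference, that of Ccnb2, had an unadjusted p under 0.05. Over the other alternatives the count of native differences at such a p went up to 7, without native KO array 2. The count of members below 0 in activated cells, 27, was 13 after quantile normalization and ranged from 5 to 36 with single arrays left out. With array weights, whose fit stopped before it converged, Cenpa in native cells was at -0.025, Anln in activated cells at 0.057, and Spc25 at -0.15 in activated cells and -0.18 in the interaction (fitted values). With single arrays left out, native Cenpa ranged from -0.034 to 0.052 (-0.017 without WT array 3), activated Spc25 from -0.025 to 0.23 and its interaction from -0.051 to 0.20, and activated Cenpf from -0.42 to 0.039, Bub1b from -0.29 to 0.0058 and Anln from -0.44 to 0.042. The cause was not tested. Members at background on all arrays of a native group, 10 in each, have only bounds there.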

Other observations

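Several genes that act with the members did not rise. Smc4, the partner of SMC2 in every condensin, lay at 12.04, 12.23 and 11.98 on native WT arrays 1, 2 and 3 and at 11.58, 11.57 and 11.40 after activation, without overlap, and fell in KO cells by 0.51 ± 0.11 on the log2 scale (limma, adjusted p = 0.00717). Smc2 lay at 7.88, 8.10 and 7.73 in native WT and at 10.23, 9.56 and 10.13 in activated WT cells. Pttg1, securin, fell in KO cells by 0.49 ± 0.11 (adjusted p = 0.00817), while separase, which it inhibits, rose. These genes were singled out after their values were seen.

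Top2a had a further row under its symbol, drawn on a separate transcript record, which rose by 0.47 in WT and 0.35 in KO cells where the main row rose by 3.53 and 3.24.

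A spacing of NF-Y boxes was noticed while the promoters were read and then counted. Boxes that start 30 to 35 bases apart were present in 6 of 33 members (18.2%: Aurka, Ccnb1, Ccnb2, Cdk1, Nek2 and Spc25), in 9.8% of 102 other mitotic genes, in 4.76% of the other rising genes and in 2.37% of tested protein-coding genes. The median fitted rise in WT cells was 2.88 in the 5 measured members with such boxes and 3.09 in the 27 without.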
